A study of Homo sapiens with 4 samples.

Results

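The AP-1 transcription factors followed here were 10 genes chosen by name, FOS, FOSB, FOSL1, FOSL2, JUN, JUNB, JUND, ATF3, MAFF and MAFK, out of 61906 gene identifiers in the expression table. The choice was made with earlier results of these data known. All 10 were found in the table and all 10 passed the filter on low values, which kept genes averaging 1 TPM or more. The cells were HepG2, an established human hepatocellular carcinoma line of wild type genotype, and every library was poly(A)-enriched RNA. In the mock group the cells received no PDS, and in the PDS group they received 20 µM pyridostatin (PDS), a ligand that binds guanine quadruplexes (G4), for 24 h. Each group held 2 libraries, which the series description calls biological replicates. Whether these were separate cultures is not stated, and the p-values therefore reflect the spread among the 4 libraries alone. The comparison asks how a G4 ligand alters the RNA levels of these genes.

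AP-1 is a family of transcription factors that bind DNA as dimers through a basic region and a leucine zipper (bZIP). JUN proteins pair with each other or with FOS proteins, whereas FOS proteins mostly bind DNA with a JUN partner. The dimers typically recognise sites that fall within the pattern TGANTCA, where N is any base, though not every such sequence is an AP-1 site. ATF3 is a stress-induced bZIP factor that can pair with JUN proteins, and the small MAF proteins MAFF and MAFK carry a zipper but no transactivation domain and serve mainly as partners of the NRF2 group. Many of these genes are immediate early genes: serum, stress or growth factor signals switch them on within minutes, and their mRNAs are short-lived. In liver, JUN is known for its role in hepatocyte proliferation and survival.

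The promoters of several members share a short sequence, which is shown because it groups the genes without using their expression. The RefSeq promoter table (GRCh38.p14) held 10 promoters of 8 members, and FOSL1 and MAFK had no entry. Each promoter runs from 250 bases before to 50 bases after the start, and both strands were searched. The core TGACGT of the cAMP response element was present in 5 of the 10 promoters, against 7.98% of all 35116 promoters of the same length. These were promoters of FOS, FOSB, FOSL2, JUND and MAFF. The full palindrome TGACGTCA, which contains that core, was present in 2 of the 10, of JUND and MAFF (1.85% of all promoters). The variant TGACATCA was present in 2 of the 10, of JUN and ATF3 (2.61% of all promoters). ATF3 and MAFF each had another promoter, in which none of the 3 sequences was found. Of the windows below, 7 show these matches in capitals, and the JUNB window shows its TATA box, since none of the 3 sequences was found there.
FOS, chr14:75278752-75278781, plus strand: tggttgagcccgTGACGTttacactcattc
FOSB, chr19:45467924-45467953, plus strand: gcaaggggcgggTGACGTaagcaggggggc
FOSL2, chr2:28392780-28392809, plus strand: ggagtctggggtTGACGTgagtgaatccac
JUND, chr19:18281804-18281833, minus strand: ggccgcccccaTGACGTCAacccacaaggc
MAFF, chr22:38201929-38201958, plus strand: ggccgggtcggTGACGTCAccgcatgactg
JUN, chr1:58784096-58784125, minus strand: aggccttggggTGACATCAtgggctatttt
ATF3, chr1:212565273-212565302, plus strand: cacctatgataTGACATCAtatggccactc
JUNB, chr19:12791443-12791472, plus strand: tgactagcgcggTATAAAggcgtgtggctc
The match began 64, 60, 66, 54 and 67 bases before the start for FOS, FOSB, FOSL2, MAFF and JUN. It began 123 bases before the start for ATF3 and 200 for JUND. JUND had a further TGACGT match, on the other strand, which lay 87 to 81 bases before the start. The pattern TGANTCA, with any base at N, was found only for FOSL2, as TGACTCA after its start, against 7.71% of all promoters.

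A G4 sequence pattern means here 4 runs of at least 3 guanines with loops of 1 to 7 bases. It was found in 3 of the 10 promoters, of the 2 members FOSL2 and MAFF, against 25% of all promoters. The FOSL2 pattern begins 188 bases before the start and is shown in capitals because G4 folds are what PDS binds.
FOSL2, chr2:28392666-28392695, plus strand: ggccGGGAGCCGGGGCTGGGAGGGGagagc
The log2 fold changes of FOSL2 and MAFF, given below, were among the smaller ones of the members. The smallest were those of FOSB (0.47), where no pattern was found, and MAFK (0.58), which had no promoter entry. A relation between the pattern and the changes was not tested. Whether any of these sequences was folded or bound was not measured in these libraries.

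Depth was greater in the mock libraries (42002346 and 32622640 recovered reads) than in the PDS libraries (16603612 and 20922068), and the members rested on 47 (FOSB) to 7340 (JUND) reads per library. The HepG2 markers were abundant, with a summed level of 45868 to 49278 TPM in the mock and 40271 to 41569 TPM in the PDS libraries for 8 genes including ALB and AFP. The erythroid markers of K562, the study's other line, summed to 0.269 to 1.08 TPM in the mock and 0.142 to 0.364 TPM in the PDS libraries, with HBG1 at 0 throughout. The fibroblast markers summed to 20.0 to 20.6 TPM in the mock and 12.1 to 14.6 TPM in the PDS libraries, nearly all of it PDGFRB, while COL1A1 averaged 0.244 TPM (mock) and 0.217 TPM (PDS). The leukocyte markers summed to 5885 to 5974 TPM in the mock and 6395 to 7211 TPM in the PDS libraries, nearly all of it LYZ, while PTPRC averaged 0.0321 TPM (mock) and 0.0492 TPM (PDS). In bulk RNA, fewer cells of a kind and less RNA per cell cannot be told apart.

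TPM is a length-corrected share of the library, and by this measure the median gene fell after PDS (log2 fold change -0.55). Fold changes are therefore given relative to the median gene, on the log2(scaled TPM + 1) scale, which understates the change of low genes. TPM values are as deposited unless called scaled, and n = 2 per group throughout. The HepG2 markers, which fell in summed TPM, were on this scale higher for 7 of 8 genes and lower for 1, against 16.2% and 13% of all tested genes. Their median log2 fold change was 0.56, so most rose alongside the members. By TPM as deposited 2 of the 8 were higher and 3 lower, against 2.58% and 71.8% of all tested genes. By limma with Benjamini-Hochberg adjustment over 14686 genes, 2377 genes were higher and 1906 lower after PDS. Without rescaling the counts were 379 and 10538.

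Most AP-1 genes rose after PDS relative to the median gene, JUNB by the most. Of the 10 members, 9 were higher at an adjusted p (limma) below 0.05 and 0 lower, where 16.2% of all tested genes were higher and 13% lower. Their median log2 fold change was 0.85, against -0.0001 for all tested genes. Since the members were chosen with earlier results of these data known, this contrast with all tested genes cannot serve as a test. All 10 members had both PDS libraries above both mock libraries in scaled TPM, as did 35.2% of tested genes, and 0 had both below (35.6% of tested genes). In TPM as deposited both PDS libraries were above for 5 members, FOS, FOSB, FOSL1, JUNB and JUND (4.77% of tested genes), and below for 0 members (82.1% of tested genes). Without rescaling, 3 members were higher (2.58% of tested genes) and 0 lower (71.8%), and these were FOSL1, JUNB and JUND. The same 3 genes were called without PDS library 1, without PDS library 2 and with no filter on low values. Without mock library 1 or without mock library 2, limma called 0 members, although 9 of 10 had an unadjusted p below 0.05 in each case, and 0 genes of the whole table passed. With no variance trend FOS, FOSL2, JUN and MAFK lost their calls, while FOSB passed there, with limma voom on recovered reads and with a minimum of 30 reads.

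**Figure D1:**
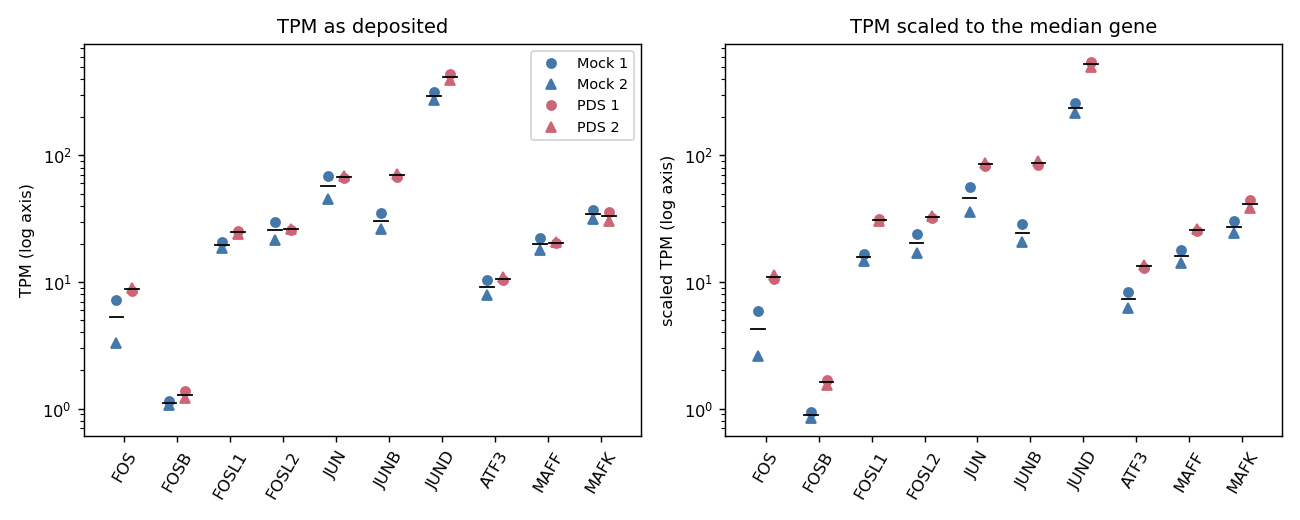
RNA level of the 10 AP-1 members in each library, as deposited TPM (left) and as TPM scaled to the median gene (right), on log axes; circles are library 1 and triangles library 2 of each group, and black bars are group means. In the right panel every PDS point lies above both mock points of the same gene, while in the left panel the groups overlap for FOSL2, JUN, ATF3, MAFF and MAFK.

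The JUN family encodes the usual partners of FOS proteins in AP-1 dimers. JUNB (ENSG00000171223.6, chromosome 19, 12791486 to 12793315, plus strand, 1 exon), which often acts as a weaker activator than JUN and can oppose it, had 35.1 and 26.1 TPM in the mock libraries and 68.1 and 71.8 TPM in the PDS libraries. Both PDS libraries were well above both mock libraries, and the PDS libraries lay close together. The log2 fold change was 1.81 (SE 0.155, limma adjusted p = 0.00593, n = 2 per group), a 3.52-fold rise relative to the median gene. The JUNB estimate ran from 1.59 to 2.04 when each library was left out in turn, and was 1.18 by TPM as deposited (limma adjusted p = 0.000823).

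JUND (ENSG00000130522.6, chromosome 19, 18279694 to 18281622, minus strand, 1 exon), the JUN protein present in most resting cells, was the most abundant member. Its level was 318 and 273 TPM in the mock libraries and 442 and 397 TPM in the PDS libraries. The groups did not overlap, and library 1 was the higher of each group. The log2 fold change was 1.15 (SE 0.105, limma adjusted p = 0.00647), and 0.51 by TPM as deposited (limma adjusted p = 0.00442).

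JUN (ENSG00000177606.8, chromosome 1, 58776845 to 58784048, minus strand, 1 exon in the canonical transcript), the founding member of the family, behaved less uniformly. It had 68.9 and 45.5 TPM in the mock libraries and 66.9 and 69.0 TPM in the PDS libraries. Mock library 1 was as high as the PDS libraries in TPM, and mock library 2 stood alone at the low end. Relative to the median gene JUN rose by 0.91 on the log2 scale (SE 0.207, limma adjusted p = 0.0317), from 0.60 without mock library 2 to 1.23 without mock library 1. By TPM as deposited the log2 fold change was 0.27, and this did not pass (limma adjusted p = 0.226).

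Ratios of genes within a library do not depend on how libraries are scaled, and JUNB gained on JUN in them. JUNB held 8.31% and 7.57% of the summed TPM of the JUN family in the mock libraries and 11.8% and 13.3% in the PDS libraries. JUN held 16.3% and 13.2% in the mock libraries and 11.6% and 12.8% in the PDS libraries, and JUND held 73.8% to 79.2% across all 4. The groups did not overlap for JUNB, with a difference of 4.63 percentage points, nor for JUN, but they overlapped for JUND. The ratio of JUNB to JUN, chosen after its values were seen, was 0.508 and 0.574 in the mock libraries and 1.02 and 1.04 in the PDS libraries. An exact permutation test of 2 against 2 libraries, two-sided, gave p = 0.3333 for the JUNB share, the JUN share and their ratio, which is the smallest p this design allows.

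**Figure D2:**
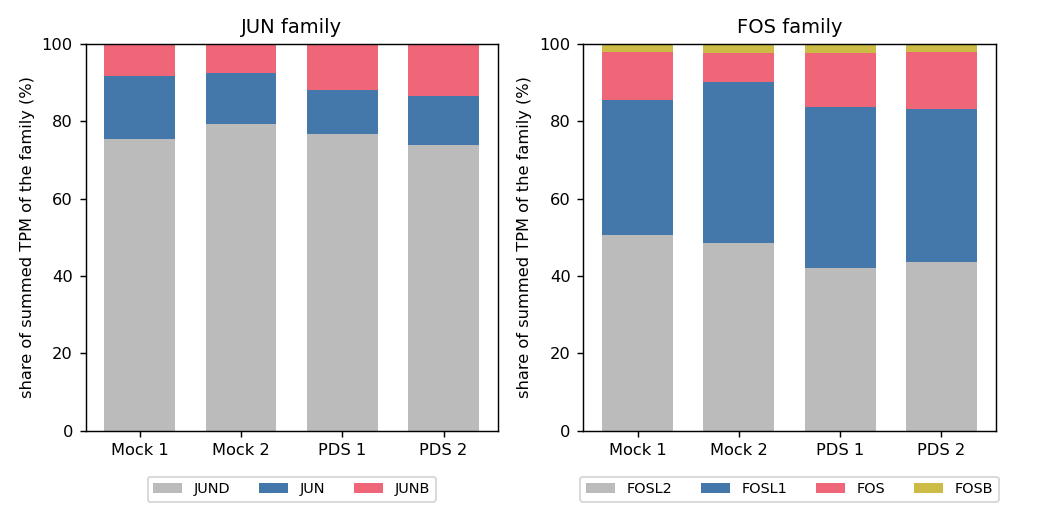
Share of each gene in the summed TPM of its family, in percent, for the 4 libraries; bars are single libraries and colours are genes. The JUNB share of the JUN family is 8.31% and 7.57% in the mock libraries and 11.8% and 13.3% in the PDS libraries, and the FOSL2 share of the FOS family is lower in both PDS libraries.

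The FOS family encodes proteins that mostly bind DNA with a JUN partner. FOSL1 (ENSG00000175592.9, chromosome 11, 65892049 to 65900573, minus strand), which lacks the strong activation domain of FOS and is linked to migration and invasion of tumour cells, had 20.6 and 18.5 TPM in the mock libraries and 25.5 and 24.0 TPM in the PDS libraries. The groups did not overlap and each was tight. FOSL1 rose by 0.95 on the log2 scale (SE 0.0838, limma adjusted p = 0.00633), and by TPM as deposited the log2 fold change was 0.33 (limma adjusted p = 0.0128).

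FOS (ENSG00000170345.10, chromosome 14, 75278826 to 75282230, plus strand), the classic immediate early gene, had 7.26 and 3.29 TPM in the mock libraries and 8.51 and 8.94 TPM in the PDS libraries. The mock libraries differed from each other more than mock library 1 differed from the PDS libraries. They rested on 277 and 96 reads, with exact Poisson 95% intervals of 6.43 to 8.17 TPM and 2.67 to 4.02 TPM, which cover counting error only. The log2 fold change was 1.26 (SE 0.308, limma adjusted p = 0.0376), from 0.79 without mock library 2 to 1.73 without mock library 1, and by TPM as deposited it was 0.71 (limma adjusted p = 0.0738).

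FOSL2 (ENSG00000075426.12, chromosome 2, 28392448 to 28417317, plus strand), a late and more stable FOS protein, had 29.6 and 21.4 TPM in the mock libraries and 25.6 and 26.4 TPM in the PDS libraries. The PDS libraries lay between the mock libraries in TPM, and above both after scaling. The log2 fold change was 0.67 (SE 0.164, limma adjusted p = 0.0387) relative to the median gene, and 0.043 by TPM as deposited (limma adjusted p = 0.806).

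FOSB (ENSG00000125740.14, chromosome 19, 45467995 to 45475179, plus strand), known for its stable splice form in neurons, was the lowest member. It had 1.16 and 1.06 TPM in the mock libraries and 1.37 and 1.21 TPM in the PDS libraries, from 47 to 77 reads per library. Its log2 fold change of 0.47 (SE 0.165, limma adjusted p = 0.0922) did not pass. At this low level the estimate depended on the value added before the log. It was 0.80 with 0.1 added instead of 1 (limma adjusted p = 0.102). By limma voom on recovered reads it was 0.85 (limma adjusted p = 0.00534). FOSB overlaps ERCC1 on the opposite strand, which had 21.9 to 24.6 TPM, and reads of such neighbours cannot be told apart where the strand setting is not given.

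Within the FOS family, FOSL2 held 50.5% and 48.4% of the summed TPM in the mock libraries and 42.0% and 43.5% in the PDS libraries. FOS held 12.4% and 7.44% in the mock libraries and 14.0% and 14.8% in the PDS libraries. The groups did not overlap for FOSL2 or FOS and overlapped for FOSL1 and FOSB. The family as a whole was lower against the JUN family after PDS, with FOS to JUN family ratios of 0.139 and 0.128 in the mock and 0.106 and 0.113 in the PDS libraries (exact permutation p = 0.3333, two-sided, n = 2 per group). The FOS family summed to 58.6 and 44.3 TPM in the mock and 61.0 and 60.5 TPM in the PDS libraries. The JUN family summed to 422 and 345 TPM in the mock and 577 and 538 TPM in the PDS libraries.

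ATF3 (ENSG00000162772.17, chromosome 1, 212565334 to 212620777, plus strand), which is induced by many stresses, had 10.3 and 7.95 TPM in the mock libraries and 10.3 and 10.9 TPM in the PDS libraries. Only mock library 2 was low in TPM, and the groups separated after scaling. The log2 fold change was 0.79 (SE 0.138, limma adjusted p = 0.0177), and 0.20 by TPM as deposited (limma adjusted p = 0.198).

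The small MAF genes, like FOSL2, had TPM values that changed little between the groups. MAFF (ENSG00000185022.12, chromosome 22, 38200767 to 38216507, plus strand) had 22.1 and 18.0 TPM in the mock libraries and 20.2 and 20.7 TPM in the PDS libraries. MAFK (ENSG00000198517.10, chromosome 7, 1530702 to 1543043, plus strand) had 37.3 and 31.3 TPM in the mock libraries and 35.6 and 30.6 TPM in the PDS libraries. Neither gene separated the groups in TPM. Relative to the median gene MAFF rose by 0.65 (SE 0.118, limma adjusted p = 0.0192) and MAFK by 0.58 (SE 0.122, limma adjusted p = 0.0266), but by TPM as deposited the log2 fold changes were 0.034 and -0.049 and neither passed, with the sign of MAFK turned. With TPM summed over nuclear genes alone, MAFK (0.36, limma adjusted p = 0.0585) and FOSL2 (0.45, limma adjusted p = 0.0643) did not pass.

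**Figure D3:**
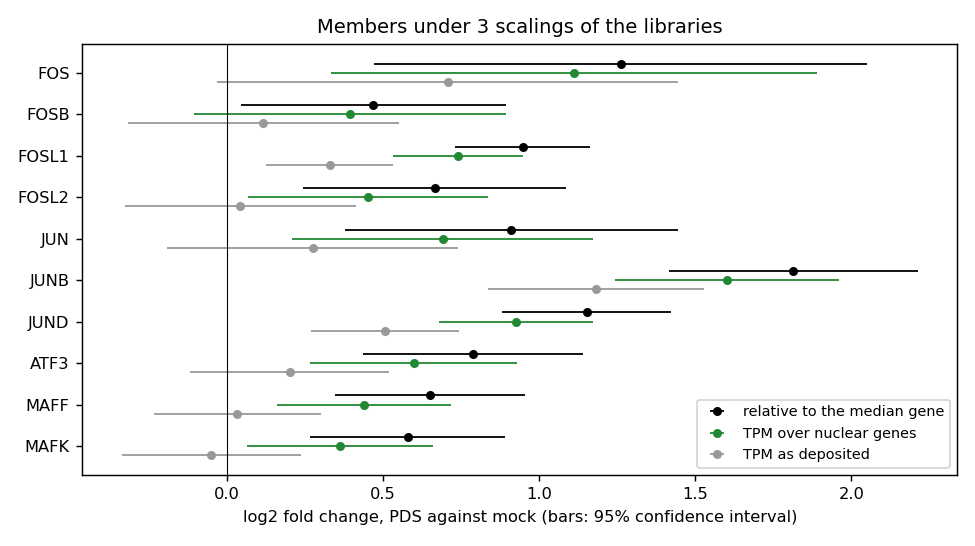
Log2 fold change of each AP-1 member, PDS against mock, with 95% confidence intervals from limma, under 3 scalings of the libraries. JUNB, JUND and FOSL1 have intervals above 0 in each, whereas MAFK goes from 0.58 relative to the median gene to -0.049 by TPM as deposited.

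JUNB moved up in the order of levels, past MAFK. In the mock libraries JUND was first by TPM and JUN second, followed by MAFK, JUNB, FOSL2, MAFF and FOSL1, then ATF3, FOS and FOSB. Across the mock libraries the ranges of MAFK and JUNB overlapped, as did those of JUNB and FOSL2, of FOSL2 and MAFF, and of MAFF and FOSL1. Within each mock library, however, MAFK was above JUNB, JUNB above FOSL2 and FOSL2 above MAFF. Of these pairs, only MAFF and FOSL1 changed order between the mock libraries. In the PDS libraries JUNB (69.9 ± 2.58 TPM, SD, n = 2) stood beside JUN (68.0 ± 1.54 TPM, SD, n = 2), with overlapping ranges. It was slightly the higher of these 2 genes in each PDS library (68.1 and 71.8 against 66.9 and 69.0 TPM). JUNB also stood above MAFK (33.1 ± 3.54 TPM, SD, n = 2).

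The 2 mock libraries differed for these genes in a single direction. All 10 members were higher in mock library 1 than in mock library 2 after scaling, as were 48.8% of tested genes. The median absolute difference between the mock libraries was 0.35 on the log2 scale for the members and 0.0926 for all tested genes, while between the PDS libraries it was 0.0893 for the members and 0.108 for all tested genes. The mock difference was 0.94 for FOS, 0.63 for JUN and 0.45 for JUNB, and 1.09%, 2.74% and 5.26% of tested genes differed at least as much. The part of this difference in the results above was not tested beyond leaving out each library.

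Many members are compact genes. The canonical transcripts of JUN, JUNB and JUND have 1 exon in GENCODE 44, and 6 members (FOS, FOSB, FOSL1, JUN, JUNB and JUND) span under 10 kb of the genome. The log2 fold changes of these 6 ran from 0.47 to 1.81 (median 1.05), and those of the other 4 from 0.58 to 0.79 (median 0.66). The low end was FOSB, which was 0.85 by limma voom on recovered reads. Among all tested protein-coding genes, 33% of the 2176 spanning under 10 kb passed as higher and 5.61% as lower. Of the 1964 spanning 100 kb or more, 6.31% passed as higher and 24.9% as lower. Genes with a canonical transcript of 1 exon were higher in 29.2% and lower in 3.98% of 226. The part of gene length in the members' rise was not tested.

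AU-rich elements in the 3′ untranslated region, which shorten the life of a message, were counted in the canonical transcripts. The pentamer ATTTA had a median of 1.63 per kb over 11154 tested protein-coding genes. FOS (6.20 per kb) and JUNB (4.0 per kb) were highest among the members, and ATF3, MAFF, JUN, MAFK and FOSL2 had 1.85 to 2.46 per kb. FOSB (1.38 per kb), JUND (1.34 per kb) and FOSL1 (1.20 per kb) lay below that median. The nonamer TTATTTATT was present in FOS, FOSL2, MAFF and MAFK, and in 9.06% of those genes. Its first copy in each is shown in capitals because it is the clearest feature these 4 messages share.
FOS, chr14:75282060-75282089, plus strand: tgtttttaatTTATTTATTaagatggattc
FOSL2, chr2:28416355-28416384, plus strand: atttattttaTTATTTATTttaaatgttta
MAFF, chr22:38215914-38215943, plus strand: tccccactgtTTATTTATTgcacggatcta
MAFK, chr7:1542851-1542880, plus strand: ttccatttcaTTATTTATTttttgtgctgc
JUNB, JUND and FOSL1, the members called under each of the scalings tried, did not hold the nonamer, and neither did FOSB, JUN and ATF3. FOS, which held it, had the largest log2 fold change after JUNB (1.26 and 1.81). Of all tested protein-coding genes with the nonamer, 11.1% were higher and 16.8% lower after PDS. Of those without it, 16.9% were higher and 15.4% lower. The part of the nonamer in the members' changes was not tested.

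Most tested genes known as AP-1 targets rose relative to the median gene. Of 24 listed, 15 were tested, and 10 were higher and 1 lower after PDS (16.2% and 13% of all tested genes), with a median log2 fold change of 0.87. This list, too, was chosen with earlier results of these data known. IL11, a cytokine, had 8.70 and 7.14 TPM in the mock and 17.3 and 14.3 TPM in the PDS libraries, a rise of 1.503 on the log2 scale (SE 0.133, limma adjusted p = 0.00633). Each PDS library exceeded each mock library. The chemokine CXCL8 rose by 1.20 on the log2 scale and PLAU, the urokinase, by 1.16, each from a mean under 2 TPM. The lower gene, named as the only one, was CCND1, the G1 cyclin, which fell by 0.60 on the log2 scale. By TPM as deposited 8 targets were higher and 4 lower (2.58% and 71.8% of all tested genes). The count of higher targets was 7 without PDS library 1 and 6 without PDS library 2, and with no filter on low values it was 4.

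Of 19 other bZIP partners listed, 14 were tested, and 1 was higher and 4 lower (median -0.064), where 16.2% of all tested genes were higher and 13% lower. NRL, a MAF factor of photoreceptors, was higher by 0.46 relative to the median gene but had a log2 fold change of -0.027 by TPM as deposited. BATF2 fell by 0.53, JDP2, a repressor that dimerises with JUN, by 0.42 and BACH1, a repressor that pairs with small MAF proteins, by 0.34 on the log2 scale. BACH1 had 17.8 and 19.2 TPM in the mock libraries and 9.37 and 8.95 TPM in the PDS libraries (SE 0.0646, limma adjusted p = 0.0212). By TPM as deposited 0 partners were higher and 11 lower, as were 2.58% and 71.8% of all tested genes, and the count of lower partners was 1 without either PDS library and 0 with no filter on low values. Without either mock library 0 genes of this or any other list were called by limma.

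Among the kinases and SRF-binding factors that act upstream of FOS and JUN, 1 of 19 tested genes was higher and 2 were lower (median 0.054), against 16.2% and 13% of all tested genes. RPS6KA3, an ERK-activated kinase, fell by 0.57 on the log2 scale, from 247 and 266 TPM to 108 and 112 TPM (SE 0.0567, limma adjusted p = 0.00695). MAP3K1, a kinase above JNK, fell by 0.45, and MAP2K4, which phosphorylates JNK, was higher by 0.31 but lower by TPM as deposited (log2 fold change -0.31). Without rescaling 0 were higher and 19 lower, where 71.8% of all tested genes were lower. Among 9 tested regulators of AP-1 turnover, 1 was higher and 2 lower (median -0.041), so 3 of 9 passed beside 29.2% of all tested genes. HNRNPD and KHSRP, proteins that bind AU-rich elements and promote decay, fell by 0.42 and 0.39, and ZFP36L1, of similar function, was higher by 0.29 but lower by TPM as deposited (log2 fold change -0.34). Without rescaling 0 were higher and 8 lower, beside the same 71.8%.

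**Figure D4:**
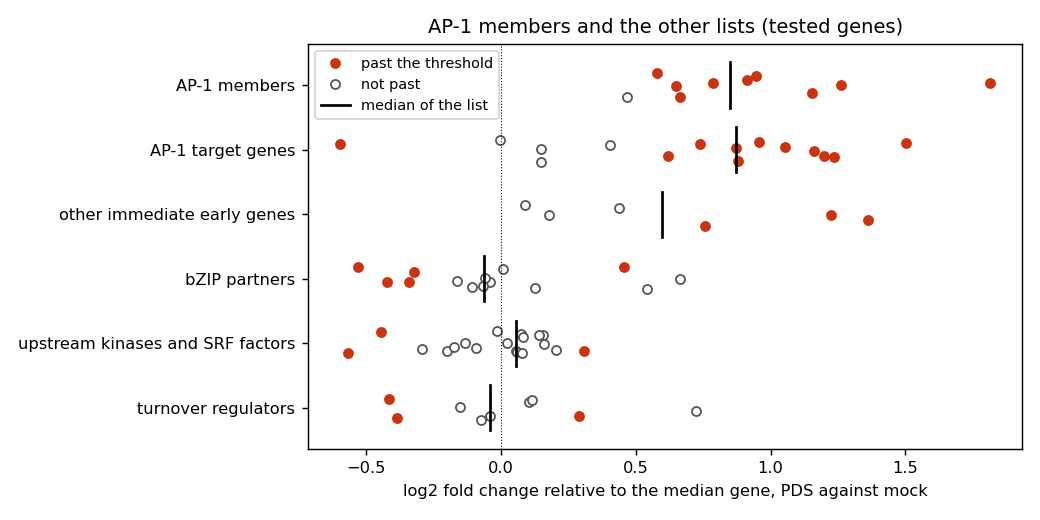
Log2 fold change relative to the median gene for the tested genes of each list, PDS against mock; filled points passed the limma threshold, open points did not, and black bars are list medians. The medians are 0.85 for the AP-1 members and 0.87 for the AP-1 targets, and lie between -0.064 and 0.054 for the bZIP partners, the upstream factors and the turnover regulators. Members and lists were chosen with earlier results of these data known.

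Of 6 tested immediate early genes outside AP-1, 3 were higher and 0 lower (median 0.60), against 16.2% and 13% of all tested genes. By TPM as deposited 1 was higher and 2 were lower (median -0.029), against 2.58% and 71.8%. EGR1, a zinc finger factor, rose by 1.36, DUSP1, a phosphatase of MAP kinases, by 1.23 and NR4A1, an orphan nuclear receptor, by 0.76. DUSP1 had 78.3 and 46.5 TPM in the mock libraries, with library 1 the higher as for FOS, and 88.5 and 93.9 TPM in the PDS libraries.

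Over the 4 libraries, genes averaging 5 TPM or more were ranked by their Euclidean distance to a member, in log2(scaled TPM + 1) centred per gene. DUSP1 was nearest to FOS (distance 0.119 among 9648 genes), followed by SOCS3 (0.232), a feedback inhibitor of cytokine signalling, and IGFBP3 (0.252). Nearest to JUN were ENSG00000217801 (0.0868), which has no gene name in GENCODE, GDF15 (0.0919), a stress-induced cytokine, and ANGPTL8 (0.103). Nearest to JUNB were TUBB2B (0.121), a beta-tubulin, A4GALT (0.135), a glycosyltransferase, and TNFRSF12A (0.156), the TWEAK receptor. With 4 libraries such distances describe these samples only.

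Other neighbours share genomic space with members on the opposite strand, HOOK2 with JUNB, PLA2G6 with MAFF and TMEM184A with MAFK. HOOK2 had 11.2 and 10.6 TPM in the mock and 7.22 and 6.36 TPM in the PDS libraries. In scaled TPM, HOOK2 had 9.13 and 8.33 in the mock and 8.96 and 8.02 in the PDS libraries, so the groups overlapped. PLA2G6 had 1.26 to 2.43 TPM and TMEM184A 12.3 to 15.2 TPM. In scaled TPM the PDS libraries were above both mock libraries for TMEM184A (12.4 and 10.5 in the mock, 16.3 and 15.5 in the PDS libraries) and for ERCC1, the neighbour of FOSB (19.5 and 17.3 in the mock, 30.5 and 30.6 in the PDS libraries), and overlapped for PLA2G6. The part of these neighbours in the values of FOSB, JUNB, MAFF and MAFK was not tested.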

How the data were processed

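RNA of 4 HepG2 libraries was analysed, 2 mock and 2 PDS. The authors' pipeline was STAR (2.7.0) on GRCh38, featureCounts (2.0.3) for counting per gene, and DESeq2 (1.36.0). The sources used here do not give the annotation release, strand setting or formula of TPM. The deposited values are TPM, a length-corrected expression signal. 2 rows without identifier (totals) and 2 repeated empty rows were left out, and the authors' 2 group averages were not tested. Of 61906 identifiers, 59984 (96.9%) matched GENCODE 44 with version and 1773 without, among them FOSB, JUN and ATF3.

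Reads were recovered from TPM times exon length, which gave whole numbers (within 0.05) for at least 99.89% of values up to 1000 reads. Where the version differed, the exon length was the whole number that gave whole reads in all libraries.

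Scaling used median-of-ratios factors of 1.23 and 1.27 (mock) and 0.806 and 0.792 (PDS). The log2(scaled TPM + 1) values of genes averaging 1 TPM or more entered limma (3.58.1, under R 4.3.3) with a variance trend, two-sided, at an adjusted p of 0.05 (Benjamini-Hochberg). Since the values were TPM, no count model such as that of the study was the main test. Single ratios were compared by exact permutation. The fit was tested on simulated data with the same dispersion (spread between replicates) for every gene. It therefore does not show how the fit behaves at the wider spread of the members' mock libraries. Alternatives covered scaling, pseudocount, filter, variance trend, voom on recovered reads, the replicate block and each library left out.

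Members and lists were chosen with earlier results of these data known. Named genes were the members, up to 4 called genes per list with the largest change and at least 30 reads (or 2 where none was called), and the 3 genes nearest to FOS, JUN and JUNB. A gene that this rule named is not reported here. Python (3.11.15) and matplotlib (3.10.9) drew the figures.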

Additional observations from a re-analysis of the deposited data

How the results depend on the processing

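Relative to the median gene 2377 genes were higher and 1906 lower. These counts were 379 and 10538 by TPM as deposited, 1139 and 4893 with TPM over nuclear genes, and 799 and 438 with no filter on low values. Leaving out each library gave 0 to 1500 higher and 0 to 912 lower genes. Without mock library 1 or 2, limma called 0 genes, with 4621 and 4094 at an unadjusted p below 0.05. With 1 library left in a group, that library is assumed to vary like the others. The 9 higher members became 3 by TPM as deposited, 3 with no filter and 0 to 3 with a library left out, and 10 by limma voom on recovered reads. With the replicate number as a block 8 members and 1679 genes were higher and 1138 genes lower. The labels do not say that the number marks a shared day, and the deviations of same-numbered libraries had a correlation of -0.0269 across genes. FOSL2 was the call lost under the block. The median log2 fold changes of the bZIP partners, upstream factors, turnover regulators, AP-1 targets and other immediate early genes were -0.69, -0.57, -0.53, 0.23 and -0.029 by TPM as deposited, and -0.29, -0.17, -0.23, 0.65 and 0.38 over nuclear genes. That of the targets was 0.22 with no filter. With a library left out, that of the upstream factors ran from -0.040 to 0.094 and that of the other immediate early genes from 0.40 to 0.79. By TPM as deposited the sign turned for MAFK (-0.049), NRL (-0.027), MAP2K4 (-0.31) and ZFP36L1 (-0.34). The FOSB share of its family, -0.0666 points after PDS, was 0.0874 by recovered reads and ran from -0.278 to 0.145 with a library left out, and that of FOSL1, 2.31 points, ran from -0.983 to 5.61. Counting error limits FOSB and the mock value of FOS.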
